A study of Rattus norvegicus with 52 samples.

Results

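The 4 RNA-seq libraries described here come from luminal mammary epithelial cells of rats labelled 6 weeks old, 2 from Cdkn1b-/- females (KO) and 2 from Cdkn1b+/+ females (WT), among 52 samples of the series. They were chosen as all libraries that carry the luminal and 6 weeks labels, and are named by the code in their titles, WTRM and WTLU for WT and KORU and KOLM for KO. The rats were of the ACI strain, to which mutations made in outbred Sprague-Dawley rats had been backcrossed. The paper sorted glands from both early and late backcross generations, and the labels used here do not give the generation of each animal. The KO animals descended from lines with short deletions in Cdkn1b, DEL-32 (em1) and DEL-65 (em4), to which the series design gives equal weight, and the labels do not say which allele each animal carried. The deletions are constitutive and not limited to the mammary gland. Cells were dissociated from the gland and sorted as Cd24+ Cd29LOW. The comparison asks whether p27 loss alters luminal cells around puberty. KO is set against WT in the same cells, and beside it stand 5 basal libraries of the same age (3 WT and 2 KO) and 6 luminal libraries labelled 4 weeks (3 WT and 3 KO).

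Cdkn1b encodes p27, which binds cyclin and cyclin-dependent kinase complexes and holds cells in G1, before DNA synthesis. Luminal cells line the mammary ducts and hold the hormone-sensing cells, which carry oestrogen and progesterone receptors, and the progenitors of the milk-secreting alveoli. At puberty ovarian hormones and growth hormone drive the ducts into the fat pad, and dividing cells are then frequent among the epithelium.

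Cdkn1b itself, the targeted gene, was read in every library. The WT libraries held 458 counts (38.9 CPM, counts scaled to library size) in WTRM and 413 counts (30.0 CPM) in WTLU, and the KO libraries 153 counts (9.89 CPM) in KORU and 280 counts (34.8 CPM) in KOLM. KORU thus lay below both WT libraries, whereas the library labelled KOLM lay between them, and its Cdkn1b level goes against its label. The difference between KO and WT was -0.64 on the log2 scale (SE 1.06, edgeR quasi-likelihood test, adjusted p = 0.785). A deleted allele can still be transcribed and counted, so the count does not settle the genotype. In the 8 KO libraries labelled 9 weeks Cdkn1b lay between 2.01 and 5.05 CPM and in the 8 WT libraries of that age between 7.23 and 17.6 CPM, with no overlap. In luminal cells of 4 weeks, however, the genotypes overlapped. Cdkn1b lay there between 4.47 and 17.3 CPM in KO and between 12.8 and 17.4 CPM in WT, so a WT-level count also occurred in another KO luminal library. The KO basal libraries of 6 weeks held 9.33 CPM (code KORU) and 10.7 CPM (code KOLM). Among WT basal libraries, WTRM held 19.2 CPM, WTLU 21.5 CPM and WTRU 2.93 CPM. The KO basal libraries thus lay below WTRM and WTLU and above WTRU, which had 25 Cdkn1b counts and was the smallest of the 36 genotype libraries.

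The libraries held 9286371 to 13145216 counts on genes, and the labelled KOLM library was the smallest. It detected 9241 of 17356 listed genes, fewer than any of the other 35 libraries of the genotype series, which detected 10444 to 15403. Across genes the WT libraries correlated with each other at a Spearman rho of 0.920 and with KORU at 0.834 and 0.897, while the library labelled KOLM correlated with them at 0.619 and 0.687 and with KORU at 0.779. The median absolute difference per gene was 0.65 on the log2 scale between the WT libraries and 1.47 between the KO libraries, so the KO pair differed more within itself than WT from WT. Of the genes tested, 2936 had no count in the library labelled KOLM, against 321 in KORU, 1575 in WTRM and 974 in WTLU. The number in the titles was 5.3 for KORU and 5.9 for the others. The labels do not say what it stands for, and if it marks a day or batch, then KORU had that batch to itself among these 4 libraries.

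No gene passed the edgeR quasi-likelihood test of KO against WT luminal cells (0% of 11921 genes, adjusted p under 0.05). The lowest adjusted p was 0.121, and 1961 genes had an unadjusted p under 0.05, 1235 higher and 726 lower in KO. Other fits of the same contrast made calls. DESeq2 on the same 9 libraries called 949 genes higher in KO (7.96%) and 383 lower (3.21%), and limma with the animal code as a block called 2 genes. When the luminal libraries labelled 4 weeks joined those of 6 weeks in the edgeR fit, 586 genes were called higher (5.16% of 11355) and 192 lower (1.69%). Below, this last fit is named the fit of both ages. In it the 6 libraries of 4 weeks add to the estimate of the spread. Fits without the library labelled KOLM leave KORU as the only KO luminal library of 6 weeks. Its spread is then assumed to be that of the other groups, so calls for KORU alone hold no spread between KO animals. With the library labelled KOLM left out, edgeR called 0% of 12742 genes for KORU against WT, with 1217 genes at an unadjusted p under 0.05. DESeq2 called 365 in that comparison, and the fit of both ages called 436 genes higher (3.66% of 11925) and 75 lower (0.629%).

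A count that needs no model was taken as the genes for which both KO libraries lay over 2-fold above both WT libraries, or over 2-fold below both. These were 1206 genes higher (10.1% of genes tested) and 890 lower (7.47%). With library sizes set to the summed luminal markers, the counts were 1845 and 329. Of the 1206 higher genes, the library labelled KOLM was over 2-fold above KORU for 631, KORU above it for 40, and the KO libraries were within 2-fold for 535. Of the 890 lower genes, the library labelled KOLM was over 2-fold below KORU for 559, KORU below it for 7, and they were within 2-fold for 324, and 272 of the 890 had no count in the library labelled KOLM. The genes described below as shared by the KO libraries are read against these shares.

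Endothelial, fibroblast, pericyte, myeloid and adipocyte markers, of cells that the luminal sort should leave out, had higher sums in both KO libraries than in WT, and the highest in the library labelled KOLM. Of these lists, KORU lay above the range of the 6 luminal libraries of 4 weeks for endothelial and adipocyte markers only (adipocyte 435 against 212 to 387 CPM). It lay within the range for fibroblast (128 in 58.1 to 394 CPM), pericyte (91.4 in 16.3 to 95.1 CPM) and myeloid markers. Both WT libraries of 6 weeks lay below the range for fibroblast, myeloid and adipocyte markers. Lymphoid markers summed to 4.08, 15.9, 33.1 and 7.47 CPM in WTRM, WTLU, KORU and KOLM and skeletal muscle markers to 5.95, 13.4, 6.59 and 2.36 CPM, and erythroid markers had no count in either KO library. The 17 endothelial markers in the table summed to 59.4 CPM in WTRM and 92.3 in WTLU, against 655 in KORU and 3519 in the library labelled KOLM, while the 6 luminal libraries of 4 weeks lay between 61.7 and 155 CPM. Luminal and luminal progenitor libraries of 9 weeks had sums as high, 458 to 3126 CPM in WT and 315 to 3612 CPM in KO. Of 16 endothelial markers tested, 14 lay over 2-fold above both WT libraries in both KO libraries. Plvap, a protein of endothelial fenestrae, was at 6.72, 2.91, 272 and 1246 CPM in WTRM, WTLU, KORU and KOLM. It passed in the fit of both ages (edgeR adjusted p = 0.0329), and without the library labelled KOLM its log2 difference there was 5.79. Cdh5, which forms endothelial junctions, was at 0, 0.145, 22.7 and 37.5 CPM, and Pecam1 at 0.170, 5.23, 49.8 and 194 CPM. Emcn, an endothelial sialomucin, had no count in either WT library, 20.6 CPM in KORU and 1107 CPM in KOLM. Flt1, also on the list, had similar levels in all 4 libraries, 42.9, 64.9, 64.8 and 59.0 CPM. The 3 defining endothelial genes Pecam1, Cdh5 and Kdr were therefore at most 5.23 CPM in WT and above that, except Kdr in KORU at 3.55 CPM, in the KO libraries.

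Fibroblast and fat transcripts separated the KO libraries from each other. Fibroblast markers summed to 29.0 and 46.6 CPM in WTRM and WTLU, 128 CPM in KORU and 4520 CPM in the library labelled KOLM. In luminal and luminal progenitor libraries of 9 weeks they summed to 535 to 2018 CPM in WT and 158 to 1587 CPM in KO. Dcn, a matrix proteoglycan of fibroblasts, was at 6.38, 0.0726, 3.62 and 1072 CPM, so that KORU lay within the WT range. Pdgfra was at 0.0850, 0.145, 0.517 and 38.1 CPM, and Col1a1 at 6.63, 14.4, 19.9 and 363 CPM. Only 7 of 15 fibroblast markers lay over 2-fold above WT in both KO libraries, and in the fit of both ages 7 were called higher with both KO libraries and none with KORU alone. Fabp4, a fatty acid carrier of fat and capillary cells, was at 4.76, 3.41, 94.0 and 8095 CPM, while the defining fat cell genes Adipoq and Plin1 had too few counts to be tested. Myeloid markers were nearer to each other in the KO libraries, with sums of 125, 221, 667 and 1677 CPM. Most of each sum was Cd14, at 120, 209, 580 and 993 CPM. Myeloid sums in the 6 luminal libraries of 4 weeks lay between 559 and 1025 CPM. KORU lay within that range and both WT libraries of 6 weeks below it. Of 11 myeloid markers tested, 7 lay over 2-fold above both WT libraries in both KO libraries (63.6%, against 10.1% of all genes) and 1 below. Their defining genes differed, with C1qa at 0.0850, 0.145, 1.55 and 73.3 CPM and Csf1r at 0.0850, 0.145, 4.85 and 0 CPM.

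Basal markers were higher in KO for several genes, although their sum in KORU was within the WT range. Of 19 tested, 5 lay over 2-fold above both WT libraries in both KO libraries (26.3%), and the median difference from WT was 1.33 for KORU (log2). They summed to 445 and 334 CPM in the WT libraries, 345 CPM in KORU and 2334 CPM in the library labelled KOLM. Vim, an intermediate filament of basal and stromal cells, was at 8.25, 11.2, 109 and 781 CPM and Krt5, a basal keratin, at 2.98, 1.09, 9.95 and 27.3 CPM. Krt17, the most abundant member in WT, was low in KORU, at 292, 203, 24.9 and 281 CPM. Krt14, another basal keratin, was at 18.5, 11.2, 36.4 and 153 CPM, and the basal libraries of this age had basal marker sums of 11504 to 21775 CPM. The 19 luminal markers summed to 19986, 29540, 19340 and 11947 CPM, and luminal keratin Krt8 was at 3897, 6103, 5056 and 2137 CPM. All 4 libraries therefore carried abundant luminal transcripts, lowest in the library labelled KOLM. The part of admixed cells in the other results was not tested, and in bulk RNA fewer cells of a type and less RNA per cell cannot be told apart.

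**Figure D1:**
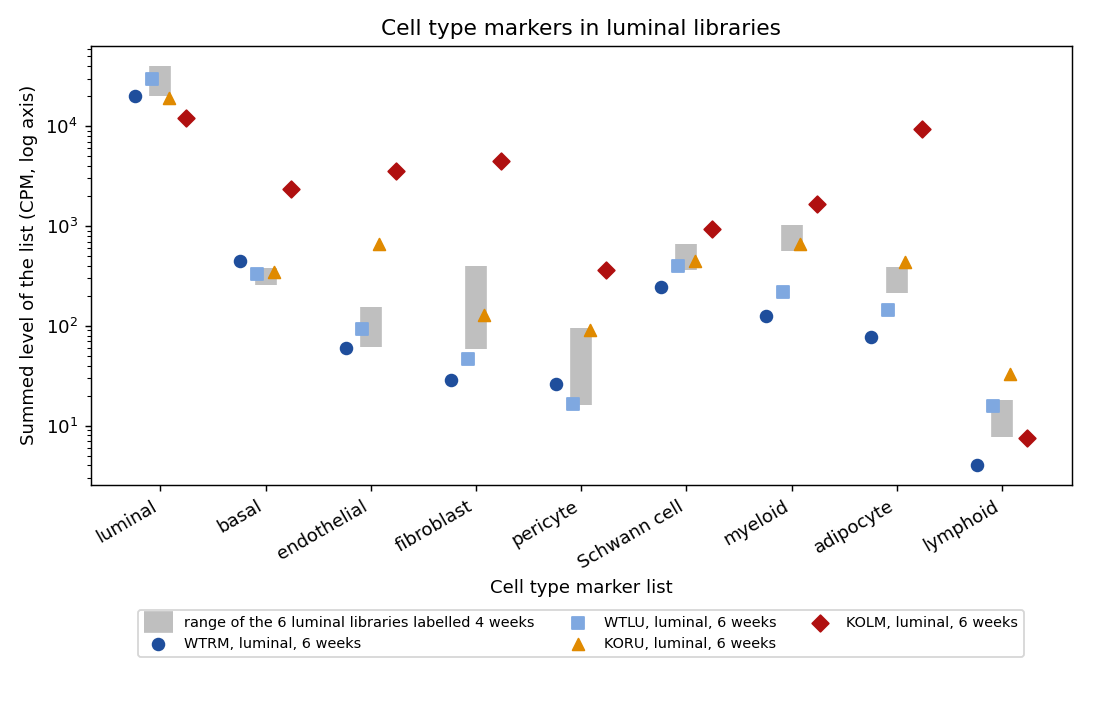
Summed level of each cell type marker list (x axis) in CPM (log y axis) for the 4 luminal libraries labelled 6 weeks, 1 symbol per library; the grey bars span the 6 luminal libraries labelled 4 weeks. KORU and KOLM lie above both WT libraries for endothelial markers (655 and 3519 against 59.4 and 92.3 CPM), and KOLM stands far above the other 3 for fibroblast markers (4520 CPM) and adipocyte markers (9346 CPM).

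Gene lists for pathways of the luminal cell were then compared in each KO library with the WT mean, and the members named as examples were mostly chosen after their values were seen. Over all genes tested the median difference was 0.16 (log2) for KORU and -0.47 for the library labelled KOLM, which is the background for the medians below. S phase genes had medians of 2.13 and -0.56, and G2 and M phase genes 2.35 and -0.55, so that these lists were high in KORU and near the background in the library labelled KOLM. Ribosomal proteins had medians of 0.53 and 2.62 and respiratory chain subunits 1.17 and 2.81. Milk genes had medians of 2.41 and 2.96, interferon-stimulated genes 1.32 and 1.79. Claudins and junction genes (-0.53 and -2.34) and Nrf2 and glutathione genes (-0.50 and -1.04) were below the background in both KO libraries.

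Genes that had no count in a library take their value from the added prior count. With such genes set at the level of 3 counts instead (0.194 to 0.373 CPM), the medians of the 25 pathway lists moved by at most 0.24 for KORU and 0.82 for the library labelled KOLM. The sign changed for no list in KORU and for 1 in KOLM, the epithelial to mesenchymal transition factors, whose median became 0.

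**Figure D2:**
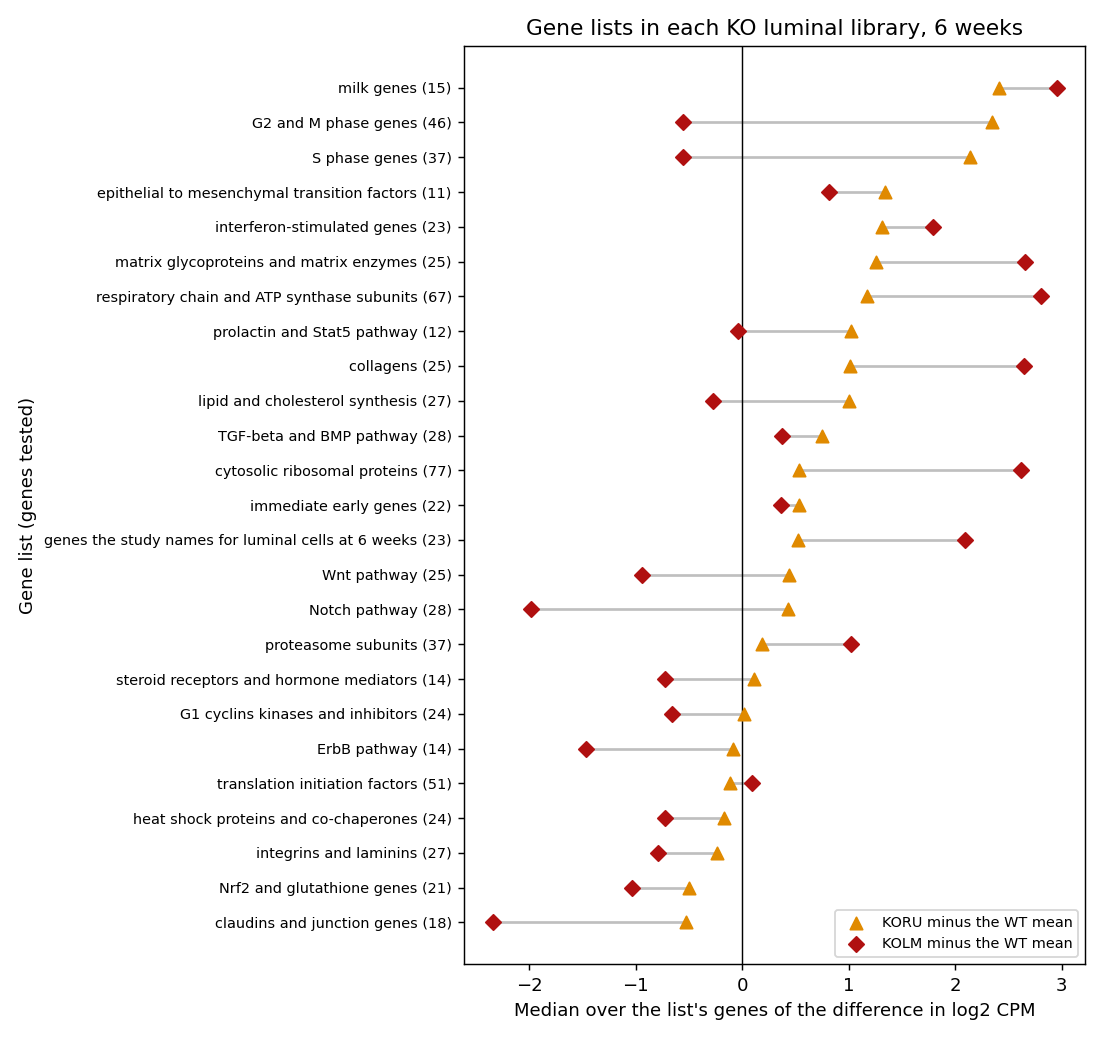
Median over each list's genes of the difference in log2 CPM between a KO luminal library and the mean of the WT luminal libraries, 6 weeks (x axis), for each gene list (y axis, genes tested in parentheses); triangles are KORU, diamonds are KOLM. S phase genes (2.13 and -0.56) and ribosomal proteins (0.53 and 2.62) are lists on which the KO libraries lie far apart, and milk genes (2.41 and 2.96) have close medians although their summed level was 14418 CPM in KORU and 44558 CPM in KOLM.

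Some antioxidant genes were low in both KO libraries. Nrf2, encoded by Nfe2l2, is a transcription factor that is released from Keap1 under oxidative or electrophilic stress and then switches on enzymes of detoxification and glutathione synthesis. Of 21 Nrf2 and glutathione genes tested, 7 lay over 2-fold below both WT libraries in both KO libraries (33.3%, against 7.47% of all genes), and 2 lay over 2-fold above. None passed the edgeR test of the 9 libraries, and in the fit of both ages 4 were called lower with both KO libraries and 5 with KORU alone.

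Hmox1, which breaks down haem, was at 4686 CPM in WTRM and 8032 CPM in WTLU against 505 CPM in KORU and 433 CPM in KOLM. Its WT mean was 13.6-fold above the KO mean, the KO libraries lay close together, and the log2 difference was -3.77 (SE 0.60, edgeR adjusted p = 0.121, and 0.0193 in the fit of both ages). Nqo1, a quinone reductase, was at 520 and 272 CPM in WT and 28.1 and 48.9 CPM in KO (log2 difference -3.39, SE 0.62, edgeR adjusted p = 0.124, and 0.0201 in the fit of both ages). Srxn1, which restores oxidised peroxiredoxins, was at 155 and 213 CPM against 12.6 and 3.11 CPM. For KORU alone in the fit of both ages, the log2 differences of Hmox1, Nqo1 and Srxn1 were -3.67, -3.85 and -3.88.

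Genes of the glutathione and thioredoxin systems were also below WT in both KO libraries. Gclc and Gclm, the subunits of the enzyme that limits glutathione synthesis, were at 460, 292, 112 and 73.3 CPM and at 202, 295, 34.1 and 0.996 CPM in WTRM, WTLU, KORU and KOLM. Slc7a11, which imports cystine for that synthesis, was at 45.7, 41.8, 3.81 and 0 CPM. Txnrd1, thioredoxin reductase, was at 586, 524, 155 and 8.34 CPM. In each of these genes the KO libraries lay below both WT libraries, and the library labelled KOLM was the lowest. In the fit of both ages Gclc passed (edgeR adjusted p = 0.0429), while Gclm, Slc7a11 and Txnrd1 did not (0.0582, 0.0660 and 0.0890). Akr1b8, an aldo-keto reductase that is not on the list and was chosen after its values were seen, was at 1050, 268, 15.9 and 3.98 CPM.

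Other members of the list did not share this order. Nfe2l2 itself was at 457, 681, 398 and 556 CPM, and the ferritin heavy chain Fth1 at 10315, 17717, 9582 and 14676 CPM, with overlapping groups. Gstm1, a glutathione transferase, was higher in KO, at 15.9, 6.61, 37.9 and 70.3 CPM. Gstp1, another transferase, was at 93.8, 155, 156 and 503 CPM, so that KORU was level with WTLU. The low genes were thus a subset of the list rather than the list as a whole.

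In luminal cells of younger glands these genes were lower than in the WT libraries of 6 weeks. In the 6 luminal libraries of 4 weeks, Hmox1 lay between 1036 and 2385 CPM and Nqo1 between 33.7 and 83.8 CPM, whatever the genotype. The WT libraries of 6 weeks lay above these ranges for both genes, and KORU and KOLM lay below the range for Hmox1, while for Nqo1 KORU lay below it and KOLM within it. Akr1b8 was at 1.36 to 3.63 CPM at 4 weeks, below all 4 libraries of 6 weeks. The genotype difference at 6 weeks exceeded that at 4 weeks by -3.54 for Hmox1 (log2, SE 0.71, edgeR adjusted p = 0.0818) and by -4.00 for Nqo1 (SE 0.67, edgeR adjusted p = 0.0711), short of the threshold.

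The same genes were low in KO basal cells of 6 weeks. Hmox1 lay between 16555 and 21200 CPM in the 3 WT basal libraries and at 1304 and 3035 CPM in the KO ones. Nqo1 lay between 1120 and 1899 CPM in WT basal cells and at 27.2 and 68.6 CPM in KO basal cells. The groups did not overlap for either gene, and neither passed the edgeR test in basal cells (log2 difference -3.07, adjusted p = 0.181, and -4.84, adjusted p = 0.138). The difference between the luminal and basal effects was -0.63 for Hmox1 and 1.70 for Nqo1, and did not pass (edgeR adjusted p = 0.911 and 0.902). At one age the code in the titles was taken to mark 1 animal, so basal and luminal libraries of one code cannot be taken as independent of each other. Fibroblast and Schwann cell markers were also higher in the KO basal libraries (sums of 2938 and 3732 CPM against 383 to 868 CPM, and of 2176 and 3464 CPM against 411 to 606 CPM), and their part in the basal result was not tested.

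Among other genes that were low in both KO libraries, 5 with roles in amino acid supply are given here as a description. They are on no list and were named after their values were seen, from the genes lowest in both KO libraries. Trib3, a target of the amino acid and endoplasmic reticulum stress response, was at 165 and 171 CPM in WT and 18.7 and 12.4 CPM in KO. Asns, asparagine synthetase, was at 370, 318, 57.9 and 81.4 CPM in WTRM, WTLU, KORU and KOLM. Cars, the cysteinyl-tRNA synthetase, was at 581, 395, 51.2 and 12.7 CPM, and Aars, that of alanine, at 288, 240, 55.1 and 48.5 CPM. Shmt2, a mitochondrial enzyme that makes glycine from serine, was at 579, 410, 60.0 and 108 CPM. In each gene both KO libraries lay below both WT libraries, which is how the genes were chosen.

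At 4 weeks these genes lay below the WT level of 6 weeks. Trib3 was at 26.8 to 80.6 CPM in the 6 luminal libraries of 4 weeks, Asns at 62.9 to 101 CPM, Cars at 49.1 to 72.3 CPM and Shmt2 at 50.4 to 71.0 CPM. Aars was at 38.2 to 110 CPM. The WT libraries of 6 weeks were above all of these ranges, whereas both KO libraries lay below the range for Trib3 and the library labelled KOLM lay far below it for Cars. Fosl1, an AP-1 subunit, was at 1425, 1712, 240 and 170 CPM in WTRM, WTLU, KORU and KOLM and at 227 to 604 CPM at 4 weeks. Plaur, the urokinase receptor, was at 733, 808, 164 and 182 CPM at 6 weeks, and Eif4ebp1, which restrains cap-dependent translation, at 402, 307, 69.4 and 66.6 CPM. In all 3 genes the KO libraries lay within 1.5-fold of each other.

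**Figure D3:**
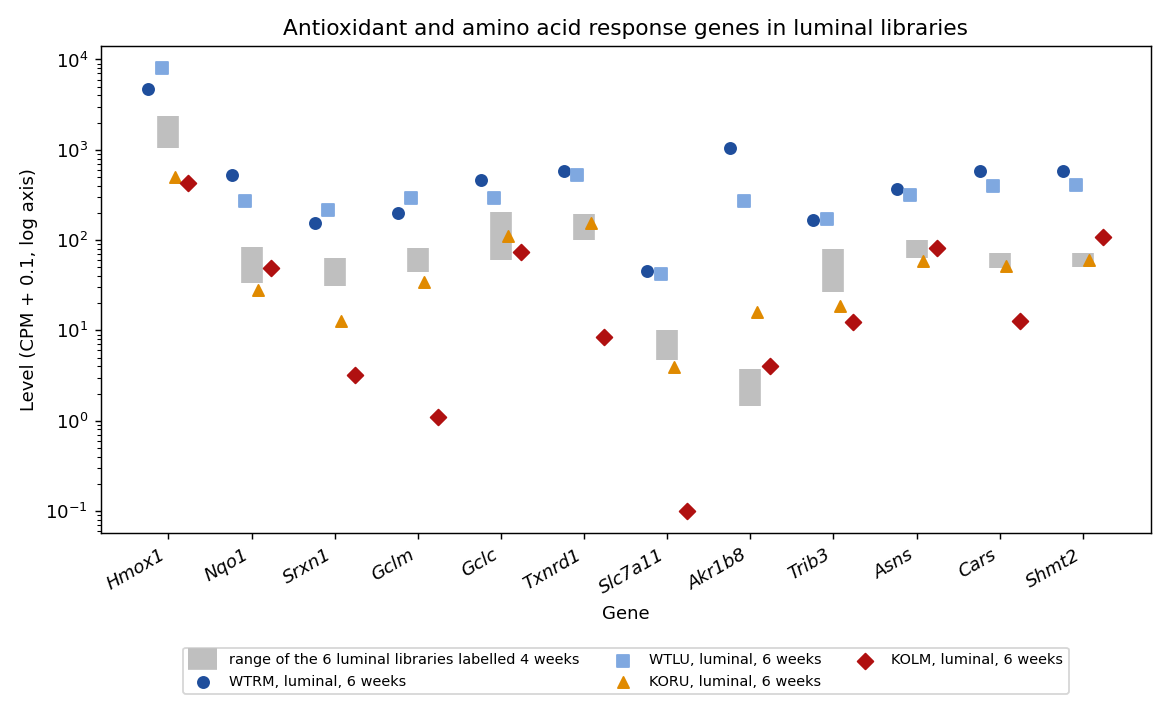
Levels of antioxidant and amino acid response genes (x axis) in CPM + 0.1 (log y axis) in the 4 luminal libraries labelled 6 weeks, 1 symbol per library; the grey bars span the 6 luminal libraries labelled 4 weeks. For every gene shown KORU and KOLM lie below both WT libraries, as for Hmox1 (505 and 433 against 4686 and 8032 CPM).

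Cell cycle genes differed by phase and by library. Of 37 S phase genes tested, 8 lay over 2-fold above both WT libraries in both KO libraries (21.6%) and 1 below, and of 46 G2 and M phase genes 12 lay above (26.1%) and none below, against 10.1% above over all genes. KORU was above the WT mean for 43 of the 46 G2 and M phase genes, and the library labelled KOLM for 20. In the fit of both ages 5 S phase genes and 7 G2 and M phase genes were called higher with both KO libraries, and 9 and 9 with KORU alone. Of these lists, 11 and 12 genes had no count in the library labelled KOLM, which detected the fewest genes.

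Pttg1, securin, which blocks the separation of sister chromatids until anaphase, was at 0.425 and 0.509 CPM in WTRM and WTLU. It was at 24.6 and 38.8 CPM in KORU and KOLM (log2 difference 6.05, SE 1.49, edgeR adjusted p = 0.145, and 0.0183 in the fit of both ages). In luminal cells of 4 weeks Pttg1 lay between 7.12 and 35.3 CPM, so the WT libraries of 6 weeks were below that range and KORU within it. Aurkb, a mitotic kinase, was at 3.32, 2.32, 20.4 and 31.7 CPM, and Mki67, a marker of dividing cells, at 2.30, 3.27, 18.8 and 9.83 CPM. Mcm4, part of the helicase that opens DNA for replication, was at 1.96, 8.21, 64.4 and 39.0 CPM, and Pola1, a subunit of the primase complex, at 1.79, 1.96, 19.6 and 17.3 CPM. In these genes both KO libraries lay over 2-fold above both WT libraries. Mki67 did not pass in the fit of both ages (edgeR adjusted p = 0.130), whereas Aurkb, Mcm4 and Pola1 did (0.0405, 0.0396 and 0.0425).

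Other genes of the same phases were high in KORU alone. Mcm5, of the same helicase, was at 1.28, 4.58, 38.3 and 0 CPM in WTRM, WTLU, KORU and KOLM, and Mcm3 at 0.425, 8.14, 54.7 and 1.24 CPM. Cdca3, which acts at mitotic entry, was at 0, 0.654, 27.7 and 0 CPM. Cdk1, the mitotic kinase itself, was at 2.04, 5.01, 19.6 and 2.99 CPM. Pcna, the sliding clamp of DNA polymerases, was instead highest in KOLM, at 100, 205, 410 and 901 CPM.

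The list of G1 cyclins, kinases and inhibitors, for the phase where p27 acts, had several members that were lower in KO. Its medians of 0.02 for KORU and -0.66 for the library labelled KOLM were near the 0.16 and -0.47 of all genes. The list also holds Wee1, whose target is the mitotic kinase. Of 24 tested, 5 lay over 2-fold below both WT libraries in both KO libraries (20.8%, against 7.47% of all genes) and none above. Cdk6, a kinase partner of cyclin D, was at 67.2, 82.1, 15.7 and 13.1 CPM, and Wee1, which restrains the mitotic kinase, at 366, 261, 92.5 and 60.2 CPM, and both passed in the fit of both ages (edgeR adjusted p = 0.0390 and 0.0299) but not without the library labelled KOLM (0.0622 and 0.0636). Myc was at 1397, 1580, 502 and 315 CPM and E2f4, a repressor of cell cycle genes in resting cells, at 222, 163, 73.9 and 52.1 CPM. The fifth gene, Cdkn2b, was at 4.34, 5.74, 0.646 and 0 CPM. Ccnd1, cyclin D1, was at 58.6, 11.3, 161 and 108 CPM, with the WT libraries far apart. The other inhibitors of the p27 family were level between genotypes, Cdkn1a at 56.6, 95.1, 56.4 and 85.9 CPM and Cdkn1c at 14.3, 24.3, 18.2 and 25.3 CPM.

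**Figure D4:**
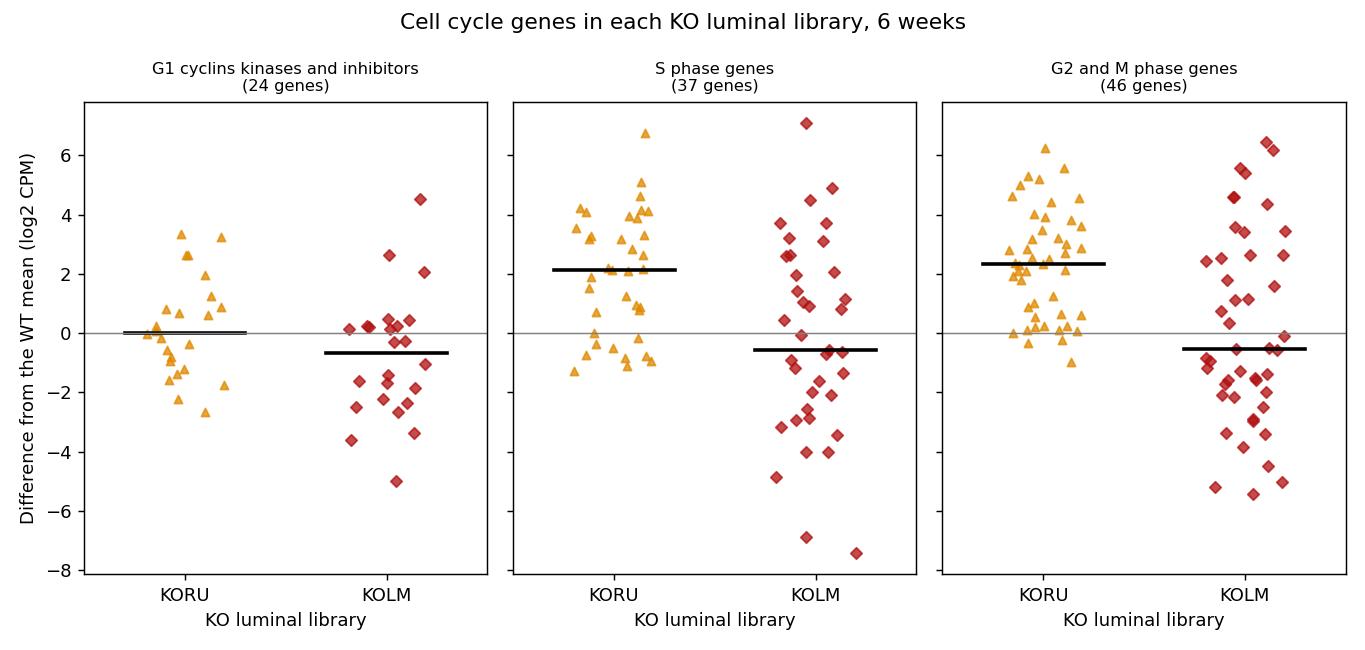
Difference from the WT mean in log2 CPM (y axis) for each gene of the G1, S phase and G2 and M phase lists in KORU and in KOLM (x axis), 1 symbol per gene, with the median as a black line. S phase and G2 and M phase medians are 2.13 and 2.35 in KORU but -0.56 and -0.55 in KOLM, and the G1 medians are 0.02 and -0.66.

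Milk protein genes, which luminal cells switch on as alveolar cells form, were higher in KO for part of the list. Of 15 tested, 6 lay over 2-fold above both WT libraries in both KO libraries (40%) and none below, and in the fit of both ages 2 were called higher with both KO libraries and 0 with KORU alone. Lalba, the alpha-lactalbumin subunit of lactose synthase, was at 260, 822, 4539 and 17273 CPM (log2 difference 4.35, SE 1.11, edgeR adjusted p = 0.145, and 0.0337 in the fit of both ages, 0.0563 without the library labelled KOLM). Csn1s1, a casein, was at 561, 1165, 2908 and 8692 CPM. Xdh, which takes part in milk fat secretion, was at 14.5, 29.6, 133 and 124 CPM.

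Beta-casein and kappa-casein did not follow. Csn2 was at 11.1, 29.5, 5.56 and 1440 CPM and Csn3 at 878, 2318, 1116 and 11080 CPM, so only the library labelled KOLM lay above WT, and without it the log2 differences were -1.87 and -0.52. Lalba lay between 2932 and 15799 CPM in the luminal libraries of 4 weeks, above both WT libraries of 6 weeks. Thrsp, a regulator of milk fat synthesis that is on no list and was chosen after its values were seen, was at 11, 33.8, 334 and 193 CPM.

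The hormone receptors Esr1, Pgr and Prlr passed neither the edgeR test of the 9 libraries nor the fit of both ages. Esr1, the oestrogen receptor, was at 18.1, 9.37, 9.76 and 0.124 CPM and Pgr, the progesterone receptor, at 152, 33.2, 110 and 0 CPM. KORU was within the WT range for both genes, and the library labelled KOLM had almost no count of either. Prlr, the prolactin receptor, was at 132, 193, 146 and 106 CPM and Areg, the growth factor that oestrogen induces in ducts, at 967, 1545, 1136 and 315 CPM. Of the 14 steroid, 12 prolactin and Stat5 and 14 ErbB genes tested, 1, 0 and 0 lay over 2-fold above WT in both KO libraries and 0, 0 and 1 below. Aldh1a3, which makes retinoic acid and marks luminal progenitors, was the luminal marker lowest in KO, at 777, 504, 36.6 and 6.35 CPM (log2 difference -4.92, SE 1.81, edgeR adjusted p = 0.229, and 0.0261 in the fit of both ages). Aldh1a3 lay between 11.6 and 77.8 CPM in the luminal libraries of 4 weeks, so that there too the WT libraries of 6 weeks stood above.

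Adhesion and Notch genes were lower mainly in the library labelled KOLM. Of 18 claudin and junction genes, 4 lay over 2-fold below WT in both KO libraries (22.2%) and 2 above. Cdh1, E-cadherin, was at 1190, 1209, 738 and 233 CPM, Epcam at 4351, 6560, 2779 and 1181 CPM, and Marveld2, a protein of tricellular junctions, at 58.5, 64.0, 18.3 and 8.96 CPM. The order was WT, KORU, KOLM in each. Of 28 Notch genes 3 lay below (10.7%, against 7.47% of all genes) and 1 above in this way. The Notch medians were 0.43 for KORU and -1.98 for the library labelled KOLM, against 0.16 and -0.47 over all genes. KORU was above the WT mean for 17 of the 28, so the list was not low in KORU. Notch1 was at 179, 216, 80.3 and 18.0 CPM. Hes1, a Notch target, was higher in KO at 228, 222, 372 and 493 CPM.

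The ribosome and the mitochondrion differed chiefly through the library labelled KOLM. The 82 ribosomal protein genes summed to 13102 and 24466 CPM in WTRM and WTLU, 26796 CPM in KORU and 93599 CPM in the library labelled KOLM, and 1 of 77 tested (1.30%) lay over 2-fold above both WT libraries in both KO libraries. KORU was above WTLU by far less than WTLU above WTRM. No ribosomal protein gene was called in the fit of both ages, with or without the library labelled KOLM. The 73 subunits of the respiratory chain and ATP synthase summed to 4814, 7510, 12811 and 33415 CPM, and 22 of 67 tested (32.8%) lay over 2-fold above both WT libraries in both KO libraries. In the fit of both ages 19 of them were called higher with both KO libraries and 3 with KORU alone. Proteasome subunits summed to 5452, 5648, 6226 and 10988 CPM.

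The genes that the study singles out for luminal cells of this age were read in the same way. They were chosen on these samples, so their direction is not independent evidence. Of 23 tested, 2 lay over 2-fold above and 4 below both WT libraries in both KO libraries, and in the fit of both ages 2 were called higher and 1 lower, with none called for KORU alone. Among the ribosomal genes, Rpl19 was at 333, 588, 598 and 2986 CPM and Rps28 at 40.5, 109, 105 and 546 CPM, KORU being level with WTLU. Rpl23a, Rpl28, Rps3 and Rack1, a ribosome-bound scaffold, also had their highest level in the library labelled KOLM, at 2153, 820, 1776 and 898 CPM against 406, 248, 717 and 444 CPM in KORU. The matrix genes Lum, Bgn, Fn1 and Col1a1 were at 380, 62.8, 97.4 and 363 CPM in the library labelled KOLM and at 2.39, 8.34, 5.56 and 19.9 CPM in KORU. Lum, Bgn and Col1a1 are also members of the fibroblast list. Itga1, a collagen-binding integrin subunit, was at 0.0850, 0, 4.14 and 32.4 CPM, and Timp3, an inhibitor of matrix proteases, at 46.1, 83.2, 162 and 219 CPM, and both were called in the fit of both ages (edgeR adjusted p = 0.0329 and 0.0482).

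The genes named as lower showed the same rank of libraries. Gata3, a luminal transcription factor, was at 583, 612, 355 and 60.1 CPM, and Numb, an inhibitor of Notch, at 137, 170, 79.5 and 9.83 CPM. Gsk3b, a kinase of the Wnt pathway, was at 106, 157, 58.7 and 14.6 CPM and Smad2 at 69.3, 97.6, 46.7 and 31.5 CPM. KORU lay below both WT libraries in each, by less than the library labelled KOLM did. Hes7 was near the limit of counting, at 6.63, 0.872, 1.03 and 0 CPM, with overlapping groups. Itga4 had no count in either WT library, 0.517 CPM in KORU and 3.24 CPM in KOLM.

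Matrix, TGF-beta and BMP genes were higher in KO for some members. Of 25 collagens tested, 8 lay over 2-fold above both WT libraries in both KO libraries (32%) and none below, and of 28 TGF-beta and BMP genes 8 lay above (28.6%) and none below. Col14a1, which binds collagen fibrils, was at 3.49, 6.54, 69.2 and 62.0 CPM, so the KO libraries were level (log2 difference 3.70, SE 0.55, edgeR adjusted p = 0.121, and 0.0334 in the fit of both ages). Col15a1, a basement membrane collagen, had no count in WT, 16.6 CPM in KORU and 30.9 CPM in KOLM. Bmp4, a BMP ligand, was at 0.170, 0.654, 19.6 and 92.3 CPM, and Acvrl1, a receptor of endothelial cells, at 0, 0, 9.76 and 46.9 CPM. Id3, a target of BMP signals, was at 20.2, 16.6, 53.6 and 187 CPM. Smad4, a signal transducer shared by both pathways, was at 270, 216, 120 and 38.8 CPM. These genes were high beside the endothelial and fibroblast markers given above, and whether cells of those types contribute was not tested.

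Interferon-stimulated genes lay over 2-fold above both WT libraries in both KO libraries for 8 of 23 tested (34.8%), with none below. Psmb8, a subunit of the immunoproteasome, was at 14.0, 12.2, 70.2 and 87.9 CPM, and was called in the fit of both ages (edgeR adjusted p = 0.0243). Rsad2, another member, was at 62.3, 46.4, 9.05 and 35.1 CPM, lower in both KO libraries than in WT. Heat shock proteins had 0 genes above and 2 below of 24 tested, immediate early genes 3 and 1 of 22, lipid and cholesterol synthesis 4 and 0 of 27, translation initiation factors 0 and 4 of 51, Wnt genes 2 and 1 of 25, integrins and laminins 4 and 3 of 27, matrix glycoproteins and enzymes 6 and 2 of 25, and epithelial to mesenchymal transition factors 3 and 0 of 11.

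The genotype effect in luminal cells was compared with that in basal cells of the same codes and with that in younger luminal cells. For luminal minus basal, edgeR called 0% of 11719 genes, with 454 at an unadjusted p under 0.05, and DESeq2 called 86. For 6 against 4 weeks edgeR called 0% of 11355 genes, with 1798 at an unadjusted p under 0.05 and a lowest adjusted p of 0.071, and DESeq2 called 816. At 4 weeks by itself KO against WT gave 0 edgeR calls and 159 genes at an unadjusted p under 0.05. The median difference of the Nrf2 and glutathione genes was -0.90 in luminal cells and -1.76 in basal cells of 6 weeks and 0.06 in luminal cells of 4 weeks. G2 and M phase genes had medians of 1.44, 0.68 and 0.49 in this order, and milk genes 2.54, 0.22 and -0.24. The endothelial markers summed to 106 and 187 CPM in the KO basal libraries, which came from the animal codes of KORU and KOLM, against 70.8 to 122 CPM in WT basal cells, so that in basal cells the groups overlapped. Other lists did not overlap there. Beside the fibroblast and Schwann cell markers given above, collagens summed to 7248 and 9011 CPM against 1979 to 3526 CPM.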

How the data were processed

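RNA of sorted cells was made into libraries from less than 10 ng of total RNA with a SMARTer low-input kit and sequenced as single-end reads. The authors aligned reads to rn6 with STAR 2.5.1b and deposited raw HTSeq counts per gene, 1 file per library. Rows that name no gene held 61.7% to 76.2% of a library here and were left out. Counts were fitted with edgeR 4.0.16 (quasi-likelihood test, TMM scaling, filterByExpr, Benjamini-Hochberg adjustment, threshold 0.05) over the 9 libraries labelled 6 weeks, 1 coefficient per genotype and cell type. Differences between cell types took the animal code as a term, and those between ages used the 10 luminal libraries of both ages. Alternatives were RLE scaling, other filters, DESeq2 1.42.0, limma 3.58.1 and leaving out each library. CPM printed are scaled by TMM over 36 libraries, and log2 CPM add a prior count of 2. Printed p-values rest on a spread pooled over all libraries of a fit, not on the 2 animals per luminal group alone. The fit of the 9 libraries had no term for the animal, so basal and luminal libraries of one animal entered as independent. Low-input amplification adds to the spread. No 2 of the 4 files were identical.

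The steps were tested on simulated data. The edgeR fits made almost no false calls there. All simulated libraries shared 1 spread per gene. In the data the KO libraries differed more from each other (median 1.47, log2) than the WT libraries did (0.65). The simulation therefore cannot show how many calls of the fit of both ages are false. Most DESeq2 calls fell on unchanged genes when the spread was set to that estimated from these libraries, so DESeq2 is given only as total counts. The share of changed genes that edgeR found is not given here, so an absence of edgeR calls does not show that no gene changed. Genes to be named were Cdkn1b, the genes passing the test with the largest changes (none passed), up to 2 members of each list with the highest level, and the genes the study names. Others were chosen after their values were seen. The libraries and the gene lists were chosen with earlier results of these data known.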

Additional observations from a re-analysis of the deposited data

Results flagged for a closer look

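For 2 gene groups every KO library lay on one side of the WT mean in luminal cells and on the other side in basal cells of 6 weeks. The summed level of proteasome subunits was 0.63 higher in KO luminal cells (log2) and 0.73 lower in KO basal cells (-0.73). The summed level of matrix glycoproteins and matrix enzymes was -0.27 in luminal cells and 1.04 in basal cells. Per gene the direction was the same in both, with a median difference of 1.56 in luminal cells (20 of 25 genes above 0) and 1.09 in basal cells, so the contrast exists only in the sum. The difference between cell types was not tested for either sum.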

How the results depend on the processing

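Calls depended on the fit. For KO against WT luminal cells, 0 genes were called with RLE scaling, luminal libraries alone, sizes from luminal markers, an added fold threshold, or without the basal library WTRU (an alternative chosen after seeing the data). The count was 54 with no filter (40 higher), 69 with at least 10 counts in every library (44 higher), 1332 by DESeq2, 778 with 4 and 6 weeks together, 2 by limma with the code as a random block, and, by DESeq2 on the 4 libraries, 1901 at an unadjusted p with a log2 change above 1 and 664 at an adjusted p (chosen after seeing the data). Leaving out 1 library gave 0 to 2269 calls, the 2269 (826 higher) without KORU, where the library labelled KOLM stands alone. For KORU against WT the counts were 18 with no filter, 1 with at least 10 counts, 365 by DESeq2, 143 with luminal libraries alone and 511 with both ages, and 0 without either WT library. The luminal minus basal effect gave 86 calls by DESeq2 and 0 to 1710 when a code was left out, the highest without KORU. The 6 minus 4 weeks effect gave 816 by DESeq2 and 0 to 3731 when a library was left out (153 without WTLU, 3731 without KORU and 112 without KOLM). The genes over 2-fold apart, a rule added after no gene had passed, were 1845 higher and 329 lower with sizes from luminal markers, and 1546 to 2680 and 1177 to 3889 with 1 library left out. The cause of these changes was not tested.

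Sizes from luminal markers moved the median of all genes from -0.01 to 0.58 on the log2 scale. With them the sign turned for heat shock proteins (median 0.14), Cdkn1b (0.21), Krt8 (0.13), Krt18 (0.43), Nfe2l2 (0.55), Fth1 (0.63) and Prlr (0.32). Leaving out 1 library turned the sign for 7 genes, whose log2 differences then ranged from -1.23 to 0.0079 for Krt8 and from -0.62 to 0.068 for Krt18 (0.024 without KOLM, the highest without WTLU), from -0.051 to 0.45 for Flt1 (the lowest without WTRM), from -0.56 to 0.15 for Fth1 (the highest without WTLU, 0.062 without KORU), from -1.87 to 6.15 for Csn2 and from -0.52 to 2.80 for Csn3 (the lowest without KOLM), and from -13.27 to 0.74 for Pgr (the highest without WTRM, 0.22 without KOLM). None of these had been called. No paired analysis was possible because KO and WT animals share no replicate number in the labels, only codes of their own. The code was taken to tie basal and luminal libraries of 1 animal, with a limma consensus correlation of 0.0777.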
